A study of Mus musculus with 82 samples.

Results

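The levels of 10 genes of cyclic AMP (cAMP) signalling were followed in cultured mouse cells, both hepatocytes in primary culture and embryonic fibroblasts (MEFs). They are the phosphodiesterase genes Pde4a, Pde4b, Pde4d, Pde3b, Pde7b and Pde10a, and the cAMP-responsive genes Nr4a1, Nr4a2, Nr4a3 and Crem. They were chosen by symbol, and every probe set annotated to 1 of these symbols alone was taken, which gave 32 of the 45037 probe sets and 10 of the 18193 genes on the arrays. Of the 32 probe sets, 18 belonged to phosphodiesterase genes and 14 to the other 4 genes.

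Cells were without either catalytic subunit of the energy-sensing kinase AMPK (AMPK alpha1-/- alpha2-/-, here dKO) or were control cells (WT), all on a C57BL/6 background. They received the AMPK activator 991, the AMPK activator AICAR, which cells convert to an AMP mimic, or DMSO vehicle for 4 h. The dose of 991 was 10 µM in MEFs and 3 µM in hepatocytes, and that of AICAR was 2 mM in MEFs and 300 µM in hepatocytes. In MEFs the 6 groups were dKO with 991, dKO with AICAR, dKO with vehicle, WT with 991, WT with AICAR and WT with vehicle, with 3 arrays of WT with 991 and 4 of each other group. These MEF arrays are labelled technical replicates with no biological replicate, so a p-value in MEFs measures technical spread only, and a difference between dKO and WT MEFs cannot be told apart from any other difference between these cultures. In hepatocytes the same 6 groups each held 2 preparations, given by 10 arrays a group and 9 for dKO with vehicle, and technical replicates were averaged so that n = 2 preparations. All hepatocytes were held overnight in medium with dexamethasone, and the labels do not say how the subunits were deleted.

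cAMP is made by adenylyl cyclases, activates protein kinase A, and is destroyed by phosphodiesterases. Protein kinase A phosphorylates the transcription factor CREB, which binds cAMP response elements (CRE) and switches on genes that include Crem and the NR4A nuclear receptor genes. PDE4 enzymes are specific for cAMP, and transcription of some of their forms is itself raised by cAMP. In liver, glucagon acts through cAMP to raise glucose output, and insulin counters it in part through PDE3B.

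Promoter windows from RefSeq (build GRCm38.p6, 250 bases before to 50 after a transcript start) were held for 8 of the 10 genes, 14 windows in all. The CRE half-site TGACG, or its reverse complement CGTCA, was searched on both strands, along with the full palindrome TGACGTCA, which contains both half-sites. The 3 NR4A windows each held 4 half-sites, and 76 of all 32851 windows (0.231%) held at least 4. The sequences of these windows, and of the 1 Pde4b window that held a half-site, are shown because they set the NR4A genes apart from the phosphodiesterase genes; capitals mark the half-sites.
Nr4a1, chr15:101266596-101266895, plus strand: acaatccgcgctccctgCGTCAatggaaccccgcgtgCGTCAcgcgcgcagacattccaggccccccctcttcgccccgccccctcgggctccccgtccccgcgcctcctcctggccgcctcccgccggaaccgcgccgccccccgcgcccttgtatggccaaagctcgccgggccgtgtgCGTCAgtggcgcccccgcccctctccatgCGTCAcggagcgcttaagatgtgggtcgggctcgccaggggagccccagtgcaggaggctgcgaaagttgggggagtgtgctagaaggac
Nr4a2, chr2:57123954-57124253, minus strand: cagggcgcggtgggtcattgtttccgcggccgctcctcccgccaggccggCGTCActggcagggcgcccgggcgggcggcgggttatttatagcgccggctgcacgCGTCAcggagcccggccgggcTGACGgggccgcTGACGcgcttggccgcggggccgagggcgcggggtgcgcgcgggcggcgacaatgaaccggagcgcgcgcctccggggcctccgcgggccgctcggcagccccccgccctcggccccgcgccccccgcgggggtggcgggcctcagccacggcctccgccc
Nr4a3, chr4:48045055-48045354, plus strand: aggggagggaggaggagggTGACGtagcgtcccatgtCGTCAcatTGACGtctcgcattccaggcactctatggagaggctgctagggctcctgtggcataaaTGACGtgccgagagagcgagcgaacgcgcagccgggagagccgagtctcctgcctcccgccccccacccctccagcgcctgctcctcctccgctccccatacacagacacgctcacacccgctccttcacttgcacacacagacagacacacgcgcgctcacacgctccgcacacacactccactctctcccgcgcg
Pde4b, chr4:102421305-102421604, plus strand: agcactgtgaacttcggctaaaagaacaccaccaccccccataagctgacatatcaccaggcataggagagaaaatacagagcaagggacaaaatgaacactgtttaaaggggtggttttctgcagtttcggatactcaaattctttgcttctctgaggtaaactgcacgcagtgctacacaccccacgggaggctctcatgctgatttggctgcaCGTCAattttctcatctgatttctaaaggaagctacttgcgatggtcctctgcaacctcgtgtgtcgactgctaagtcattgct

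One of the 4 Pde4b windows and 1 of the 3 Pde4a windows held a single half-site, and no half-site was in the windows of Pde4d, Pde7b or Pde10a. At least 1 half-site was in 20.8% of all windows. The full palindrome was in none of the 14 windows and in 1.79% of all windows. A match describes these letters only.

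**Figure D1:**
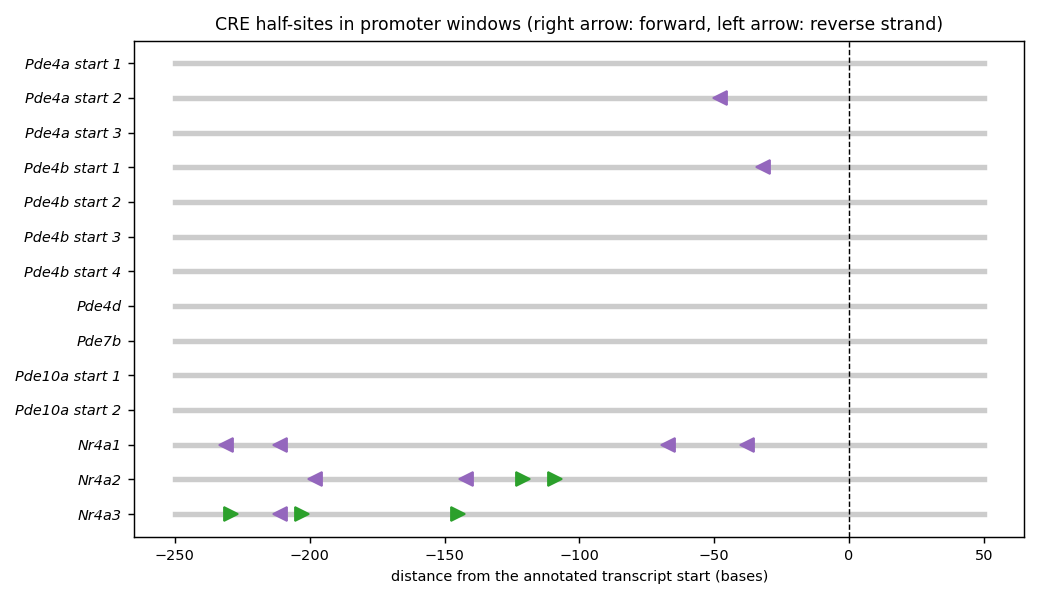
Positions of CRE half-sites (arrowheads) in the 14 promoter windows of 8 genes, by distance in bases from the annotated transcript start (dashed line). Nr4a1, Nr4a2 and Nr4a3 hold 4 each, the Pde4a and Pde4b windows with a match hold 1, and the other windows hold none.

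Values are log2 intensities per probe set, so a difference of 1 is a doubling, and a gene is represented by its brightest probe set in the cell type unless another is named. A level of one probe set cannot be set against that of another. Changes are given with their standard error, and a gene is called changed at an adjusted p under 0.05 by limma with Benjamini-Hochberg adjustment over all 45037 probe sets. Differences between genotypes are dKO minus WT throughout. 991 and AICAR share their vehicle arrays and differ in dose, so their changes are set side by side and not tested against each other.

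The median log2 intensity of an array ranged over 6.158 to 6.246 (MEFs) or 5.877 to 6.078 (hepatocytes). MEF arrays correlated with the rest of their group at 0.9979 to 0.9991. Hepatocyte arrays correlated with the other arrays of their own preparation and group at 0.9976 to 0.9991, which leaves out the spread between preparations. The 9 measured hepatocyte markers were all at or above the median level in hepatocytes, with a log2 summed level of 16.95 to 17.11, and 2 of 9 were in MEFs. The 10 fibroblast and stellate markers summed to 11.95 to 12.24 in dKO MEFs and 14.32 to 14.58 in WT MEFs, with 4 of 10 at or above the median. The 10 Kupffer cell markers summed to 11.33 to 12.11 in dKO hepatocytes and 12.15 to 12.81 in WT hepatocytes, with 9 of 10 at or above the median. The deleted gene Prkaa1 read 7.9 to 8.55 in dKO MEFs and 7.7 to 8.53 in WT MEFs, and 4.21 to 4.83 in dKO hepatocytes and 4.81 to 5.93 in WT hepatocytes. The brightest Prkaa2 probe set read 5.76 to 6.12 in dKO MEFs and 5.99 to 6.33 in WT MEFs, and 9.37 to 9.75 in dKO hepatocytes and 9.52 to 9.85 in WT hepatocytes. The labels and annotation do not say whether these probes lie in the deleted stretches, so they do not check the genotype labels.

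With vehicle, dKO MEFs had a different phosphodiesterase profile from WT MEFs. Pde3b was higher by 2.80 ± 0.17, Pde10a by 0.84 ± 0.11, Pde4b by 0.50 ± 0.08 and Pde4a by 0.47 ± 0.07, while Pde4d was lower, by a log2 difference of -1.99 ± 0.08. Of the 10 genes, 5 were called higher and 2 lower. Of all genes 46.5% were called in this comparison, 27.7% higher and 18.8% lower, so a call was common among all genes. The median difference was 0.03 over the 10 genes and 0 over all genes. In bulk RNA, fewer cells of a type and less RNA per cell cannot be told apart. The fibroblast marker sum also differed between these cultures, as given above, and its part in these differences was not tested.

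Pde3b, the phosphodiesterase that insulin activates, had 8.12, 7.92, 8.37 and 8.09 in dKO MEFs with vehicle, against 5.59, 4.57, 5.35 and 5.81 in WT MEFs with vehicle. Every dKO array was above every WT array (adjusted p = 1.28e-14). Pde4d, a PDE4 subtype known from heart and brain, had 6.74, 6.95, 6.9 and 6.59 in dKO MEFs with vehicle, against 8.82, 8.94, 8.69 and 8.68 in WT MEFs with vehicle. Here every dKO array was below every WT array (adjusted p = 1.85e-19). Its second, dim probe set 1459311_at was lower as well, by a log2 difference of -0.53 ± 0.11 (adjusted p = 0.000255).

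Pde4b, a PDE4 subtype known from inflammatory signalling, was higher in dKO MEFs by all 3 of its brighter probe sets, with differences of 0.50, 0.42 and 0.74. Pde10a, which hydrolyses both cAMP and cGMP and is known from the striatum, was higher by its brightest probe set (adjusted p = 1.02e-07) and by 1439618_at (1.06 ± 0.09, adjusted p = 5.77e-11) and 1432490_a_at (0.25 ± 0.08, adjusted p = 0.012). Pde7b, a cAMP-specific enzyme resistant to the PDE4 inhibitor rolipram, differed by -0.13 ± 0.09 (adjusted p = 0.326).

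Among the responsive genes, Nr4a1 was higher by 0.14 ± 0.05 (adjusted p = 0.0257) and the brightest Nr4a2 probe set was lower, by -0.57 ± 0.09 (adjusted p = 1.33e-06). The Nr4a1 call was lost, at differences of 0.11 to 0.14, without dKO vehicle replicate 1, dKO vehicle replicate 4 or WT vehicle replicate 3, and under quantile normalization. The Nr4a2 probe sets did not agree in direction: 1447863_s_at and 1450750_a_at were lower, by -0.46 ± 0.09 and -0.39 ± 0.09, but 1433423_at was higher by 0.53 ± 0.09. Nr4a3 differed by -0.08 ± 0.06 (adjusted p = 0.346) and Crem by -0.18 ± 0.08 (adjusted p = 0.0654), while the dimmer Crem probe set 1449037_at was lower, by -0.25 ± 0.09 (adjusted p = 0.032).

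**Figure D2:**
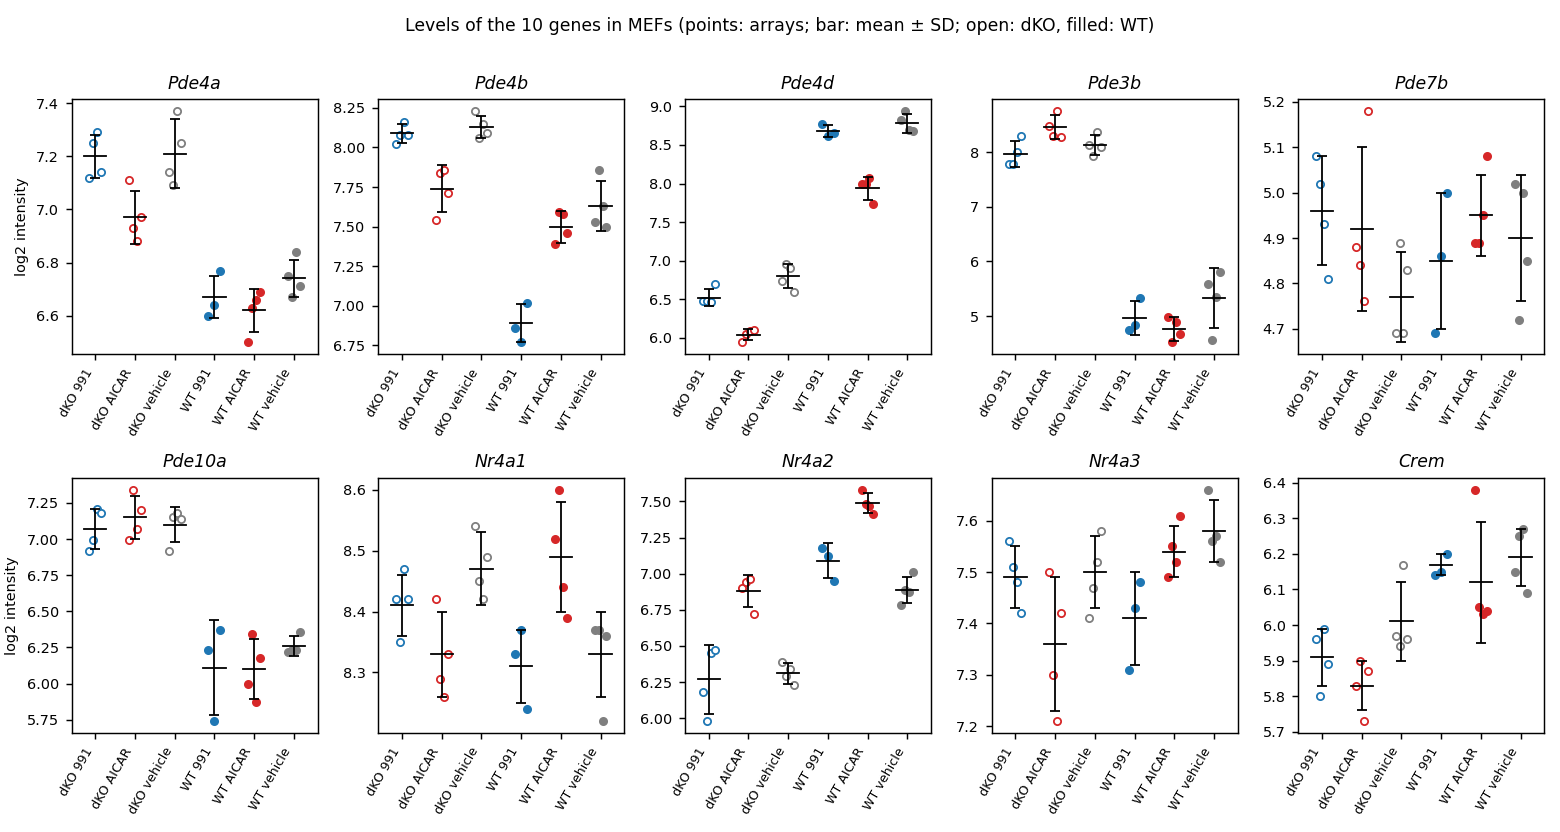
Log2 intensity of the 10 genes in MEFs, brightest probe set, for the 6 groups on the horizontal axis; points are arrays, horizontal bars the mean and error bars the SD. Pde3b lies at 7.78 to 8.75 in every dKO array, against 4.52 to 5.81 in every WT array, and Pde4d lies the other way round.

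In MEFs 991 lowered Pde4b in WT cells, and the change differed between the genotypes. Pde4b had 8.02, 8.08, 8.16 and 8.08 in dKO MEFs with 991, against 8.23, 8.06, 8.15 and 8.09 in dKO MEFs with vehicle. It had 6.86, 6.77 and 7.02 in WT MEFs with 991, against 7.53, 7.86, 7.63 and 7.5 in WT MEFs with vehicle. The dKO groups overlapped and the WT groups did not. In order of mean, the groups stood at 6.89 in WT with 991, 7.5 in WT with AICAR, 7.63 in WT with vehicle, 7.74 in dKO with AICAR, 8.09 in dKO with 991 and 8.13 in dKO with vehicle. The WT AICAR, WT vehicle and dKO AICAR arrays overlapped, as did those of the 2 highest groups, and no array of WT with 991 reached any other group.

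The change with 991 was -0.05 ± 0.08 in dKO MEFs (adjusted p = 0.866, 95% interval -0.2 to 0.11) and -0.75 ± 0.08 in WT MEFs (adjusted p = 2.35e-07). The difference between these changes was 0.70 ± 0.11 (adjusted p = 0.00031). Both other bright Pde4b probe sets gave the same pattern. In WT MEFs with 991, 1422474_at fell by 0.73 ± 0.07 and 1442700_at fell by 0.61 ± 0.08 on the log2 scale, and the differences between genotypes were 0.63 ± 0.10 (adjusted p = 0.000281) and 0.49 ± 0.12 (adjusted p = 0.0158).

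Pde4b was the only 1 of the 10 genes called with 991 in MEFs by its brightest probe set. None was called in dKO MEFs, where 2.48% of all genes were called and 1 of the 10 had an unadjusted p under 0.05. One was called lower and none higher in WT MEFs, against 16.9% of all genes, 12.5% higher and 4.4% lower. That background was not stable: over all probe sets 13% were called, against 5.79%, 6.33% or 6.77% without WT 991 replicate 2, WT 991 replicate 3 or WT vehicle replicate 1, and under quantile normalization 56.8% of the calls were higher, against 70.8%. One difference between genotypes was called, in the direction of a higher change in dKO, against 3.9% of all genes, 0.511% in that direction and 3.39% in the other. The median change over the 10 genes was -0.04 in dKO MEFs and -0.08 in WT MEFs, against 0.01 and 0 over all genes.

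Other probe sets called in WT MEFs with 991 were Pde10a 1419390_at (-0.34 ± 0.10, adjusted p = 0.0252) and Nr4a2 1433423_at (0.35 ± 0.10, adjusted p = 0.0156). Pde4d changed by -0.27 ± 0.08 in dKO MEFs (adjusted p = 0.0729) and -0.10 ± 0.09 in WT MEFs (adjusted p = 0.457). The Pde4d value in dKO MEFs passed the threshold without dKO 991 replicate 4 (-0.33) or dKO vehicle replicate 4 (-0.34). Nr4a3 changed by -0.17 ± 0.07 in WT MEFs with 991, with no overlap of arrays but no call (adjusted p = 0.0831). Pde3b changed by -0.16 ± 0.17 in dKO MEFs and -0.36 ± 0.19 in WT MEFs, and the WT change was called, at -0.61, without WT vehicle replicate 2.

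AICAR lowered Pde4d and raised Nr4a2 in MEFs of both genotypes. Pde4d had 5.94, 6.05, 6.08 and 6.1 in dKO MEFs with AICAR, below all 4 dKO vehicle arrays. It had 7.99, 7.99, 8.07 and 7.73 in WT MEFs with AICAR, below all 4 WT vehicle arrays. The changes were -0.75 ± 0.08 in dKO MEFs (adjusted p = 2.82e-09) and -0.84 ± 0.08 in WT MEFs (adjusted p = 5.68e-10), and they differed by 0.08 ± 0.11 (adjusted p = 0.768, 95% interval -0.14 to 0.31). The fibroblast and stellate marker sums moved with AICAR as well, at 11.95 to 12.06 in dKO MEFs with AICAR and 12.13 to 12.24 with vehicle, and at 14.32 to 14.41 in WT MEFs with AICAR and 14.53 to 14.58 with vehicle. Of these 10 markers 2 rose and 4 fell in dKO MEFs and 4 fell in WT MEFs, with medians of -0.14 and -0.21. Of all genes 20.1% rose and 19.6% fell in dKO MEFs, and 19.1% rose and 15.1% fell in WT MEFs. The part of these markers in the AICAR results was not tested. The dim Pde4d probe set 1459311_at fell by 0.47 ± 0.11 in WT MEFs (adjusted p = 0.00143).

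Nr4a2 encodes an orphan nuclear receptor that needs no ligand. It had 6.9, 6.94, 6.96 and 6.72 in dKO MEFs with AICAR, against 6.39, 6.29, 6.34 and 6.23 in dKO MEFs with vehicle. It had 7.58, 7.48, 7.47 and 7.41 in WT MEFs with AICAR, against 6.78, 6.89, 6.87 and 7.01 in WT MEFs with vehicle. Neither pair of groups overlapped, and the rises were 0.56 ± 0.09 in dKO MEFs and 0.60 ± 0.09 in WT MEFs. Of the other 5 Nr4a2 probe sets 3 also rose in both genotypes, by 0.27 to 0.54 in dKO MEFs and 0.25 to 0.66 in WT MEFs. The changes differed between genotypes by -0.04 ± 0.12 (adjusted p = 0.927, 95% interval -0.28 to 0.21).

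The 3 bright Pde4b probe sets fell by different amounts with AICAR. Probe set 1442700_at had 6.55, 6.69, 7.01 and 6.55 in dKO MEFs with AICAR, against 8.11, 8.16, 8.17 and 8.16 in dKO MEFs with vehicle. It had 6.67, 6.54, 6.68 and 6.43 in WT MEFs with AICAR, against 7.4, 7.39, 7.48 and 7.36 in WT MEFs with vehicle. AICAR arrays were below vehicle arrays in both genotypes, with changes of -1.45 ± 0.08 in dKO MEFs (adjusted p = 1.01e-15) and -0.83 ± 0.08 in WT MEFs (adjusted p = 6.5e-10).

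The brightest Pde4b probe set, 1422473_at, changed by -0.39 ± 0.08 in dKO MEFs (adjusted p = 7.58e-05) and -0.13 ± 0.08 in WT MEFs (adjusted p = 0.214). Probe set 1422474_at changed by -0.65 ± 0.07 and -0.34 ± 0.07 in dKO and WT MEFs, both called. The change in dKO minus that in WT was -0.27 ± 0.11 for 1422473_at (adjusted p = 0.129), -0.30 ± 0.09 for 1422474_at (adjusted p = 0.0376) and -0.63 ± 0.11 for 1442700_at (adjusted p = 0.000245). The dKO MEFs thus had the larger fall with AICAR by the 2 probe sets that were called, while with 991 the WT MEFs had the larger fall by all 3.

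**Figure D3:**
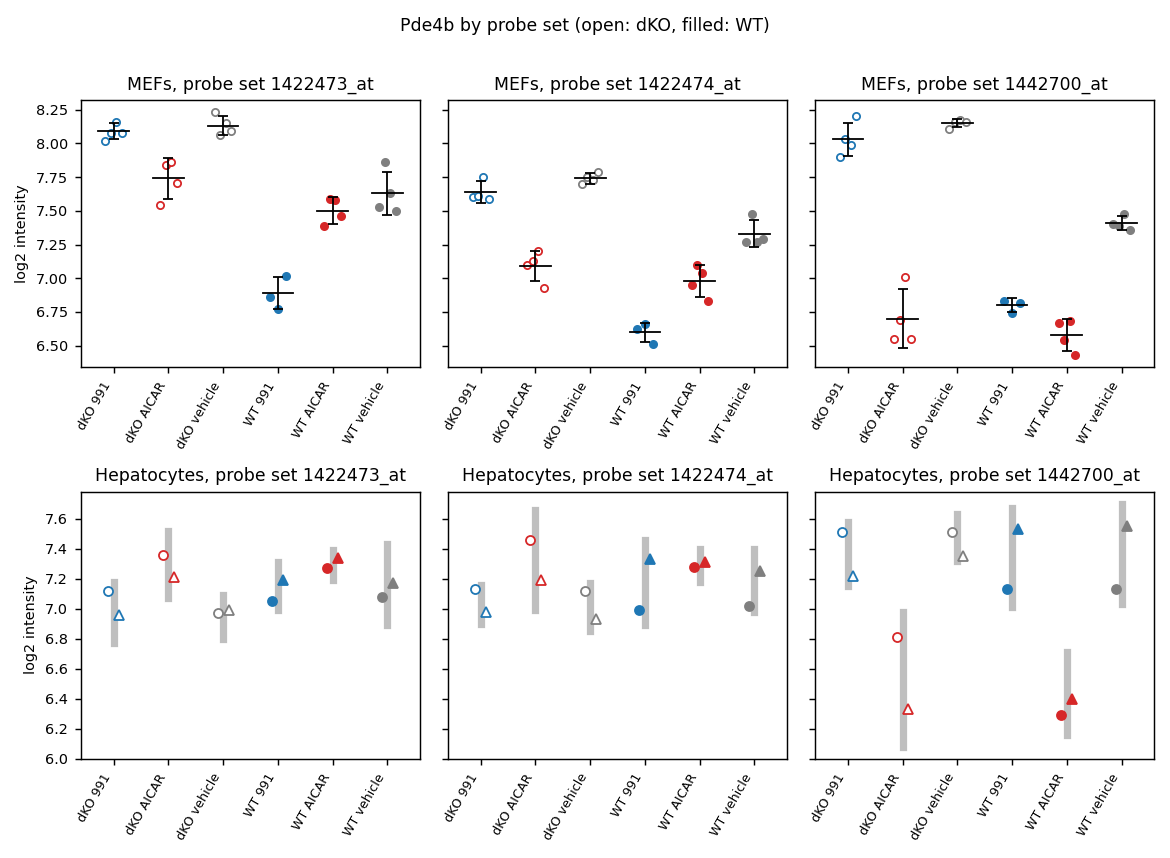
Log2 intensity of the 3 bright Pde4b probe sets in MEFs (top; points are arrays, bars mean ± SD) and hepatocytes (bottom; circle and triangle are the 2 preparations, grey bars the range of arrays) by group. In MEFs 991 lowers all 3 in WT cells, and in hepatocytes AICAR lowers 1442700_at in both genotypes while the other 2 probe sets lie at or above vehicle.

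Pde3b and Nr4a1 changed with AICAR in a way that differed between MEF genotypes. Pde3b had 8.47, 8.3, 8.75 and 8.27 in dKO MEFs with AICAR, a change of 0.32 ± 0.17 (adjusted p = 0.161), and 4.99, 4.52, 4.9 and 4.68 in WT MEFs with AICAR, a change of -0.56 ± 0.17 (adjusted p = 0.0132). The difference was 0.88 ± 0.25 (adjusted p = 0.0199). It was no longer called, at 0.72 to 0.81, without dKO vehicle replicate 2, dKO AICAR replicate 3, WT vehicle replicate 1, WT AICAR replicate 2 or WT vehicle replicate 4, and the last 3 of these also ended the call in WT MEFs, at -0.47, -0.47 and -0.4.

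Nr4a1, a nuclear receptor of the immediate early response, had 8.42, 8.29, 8.26 and 8.33 in dKO MEFs with AICAR, against 8.54, 8.45, 8.42 and 8.49 with vehicle. It had 8.52, 8.6, 8.44 and 8.39 in WT MEFs with AICAR, against 8.37, 8.37, 8.22 and 8.36 with vehicle. The changes were small and opposite, -0.15 ± 0.05 in dKO MEFs (adjusted p = 0.0237) and 0.16 ± 0.05 in WT MEFs (adjusted p = 0.0181), with a difference of -0.30 ± 0.07 (adjusted p = 0.00571). The dKO call was lost without dKO vehicle replicate 1 or 4 or dKO AICAR replicate 2 or 3, at -0.12 to -0.14, and the WT call without WT AICAR replicate 2 or WT vehicle replicate 3, at 0.12, and under quantile normalization, at 0.11.

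Pde4a fell by 0.24 ± 0.07 in dKO MEFs with AICAR (adjusted p = 0.00632) and changed by -0.12 ± 0.07 in WT MEFs (adjusted p = 0.209). The brightest Pde10a probe set changed by 0.05 ± 0.11 in dKO MEFs and -0.16 ± 0.11 in WT MEFs, but the dim probe set 1439618_at fell by 0.64 ± 0.09 in dKO MEFs and 0.78 ± 0.09 in WT MEFs. Crem encodes activators and, from an internal promoter, the repressor ICER. Its brightest probe set changed by -0.17 ± 0.08 in dKO MEFs and -0.07 ± 0.08 in WT MEFs, neither called, whereas 1449037_at rose by 0.48 ± 0.09 in WT MEFs (adjusted p = 0.000129), with a difference between genotypes of -0.47 ± 0.13 (adjusted p = 0.0184). Nr4a3, the third receptor of the family, changed by -0.14 ± 0.06 in dKO MEFs (adjusted p = 0.0711) and -0.03 ± 0.06 in WT MEFs. Pde7b changed by 0.14 ± 0.09 in dKO MEFs and 0.05 ± 0.09 in WT MEFs, neither called, although its probe set 1421353_at fell by 0.27 ± 0.10 in dKO MEFs (adjusted p = 0.0326). The remaining 3 Pde4b probe sets were dim and called in no comparison.

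With AICAR 1 of the 10 genes was called higher and 4 lower in dKO MEFs, where 39.8% of all genes were called, 20.1% higher and 19.6% lower. In WT MEFs 2 were called higher and 2 lower, where 34.2% of all genes were called, 19.1% higher and 15.1% lower. For the difference between genotypes 1 was called higher and 1 lower, against 10.9% of all genes, 3.61% higher and 7.33% lower. The shares for each genotype are near the background. The median changes of the 10 genes were -0.14 in dKO MEFs and -0.09 in WT MEFs, against -0.02 and -0.01 over all genes.

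**Figure D4:**
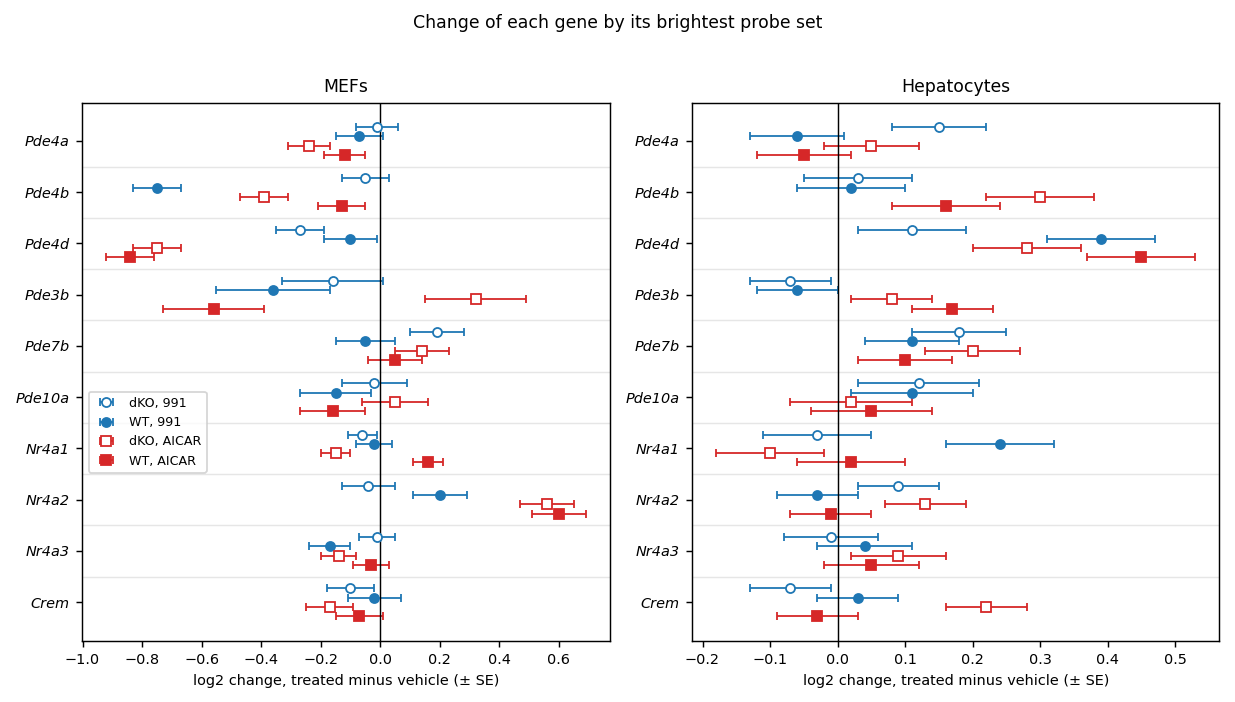
Log2 change of each gene with 991 (circles) and AICAR (squares) against vehicle, brightest probe set, in MEFs (left) and hepatocytes (right); open symbols are dKO, filled symbols WT, bars the standard error, and the axes differ in range. Pde4b with 991 stands at -0.75 in WT MEFs and -0.05 in dKO MEFs, and Pde4d with AICAR is below 0 in MEFs and above 0 in hepatocytes.

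In hepatocytes, at the lower AICAR dose, Pde4d was raised in both genotypes by its brightest probe set, 1435280_at, at percentile 48.5 of all probe sets. It had preparation means of 5.99 and 6.01 in dKO hepatocytes with AICAR, against 5.76 and 5.67 with vehicle, and arrays ran from 5.79 through a median of 6.02 to 6.13 with AICAR and from 5.44 through 5.7 to 5.99 with vehicle. It had means of 5.99 and 6.09 in WT hepatocytes with AICAR, against 5.68 and 5.5 with vehicle. Both preparations rose in each genotype, by 0.23 and 0.34 in dKO and by 0.31 and 0.59 in WT, although arrays overlapped. The second Pde4d probe set, 1459311_at, changed by 0.1 and 0.13 in the dKO preparations and by -0.02 and 0.07 in the WT preparations.

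The fitted rises of Pde4d with AICAR were 0.28 ± 0.08 in dKO hepatocytes (adjusted p = 0.0348) and 0.45 ± 0.08 in WT hepatocytes (adjusted p = 0.00371), and they differed by -0.16 ± 0.12 (adjusted p = 0.66). With 991 Pde4d changed by 0.11 ± 0.08 in dKO hepatocytes (adjusted p = 1, 95% interval -0.08 to 0.3) and rose by 0.39 ± 0.08 in WT hepatocytes (adjusted p = 0.0281), with WT preparation changes of 0.21 and 0.57. The difference between genotypes with 991 was -0.28 ± 0.12 (adjusted p = 0.685), so the changes were not shown to differ. Without WT preparation 2 both WT calls were lost, at 0.21 with 991 and 0.31 with AICAR, the 991 call was also lost without either dKO preparation, at 0.39, and the dKO AICAR call was lost without dKO preparation 1 (0.34) or 2 (0.23).

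For Pde4b the probe sets went in opposite directions in hepatocytes. Probe set 1442700_at had preparation means of 6.81 and 6.33 in dKO hepatocytes with AICAR, against 7.51 and 7.35 with vehicle, and 6.29 and 6.4 in WT hepatocytes with AICAR, against 7.13 and 7.55 with vehicle. Its arrays did not overlap in either genotype, and it fell by 0.86 ± 0.09 in dKO hepatocytes (adjusted p = 5.47e-05) and 1.00 ± 0.09 in WT hepatocytes (adjusted p = 3.13e-05) on the log2 scale.

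The brightest Pde4b probe set in hepatocytes, 1422474_at, had 7.46 and 7.19 in dKO hepatocytes with AICAR, against 7.12 and 6.93 with vehicle. It rose by 0.30 ± 0.08 there (adjusted p = 0.0192), as 1422473_at did (0.31 ± 0.07, adjusted p = 0.00749). In WT hepatocytes 1422474_at changed by 0.16 ± 0.08 (adjusted p = 0.195). The rise was no longer called without dKO preparation 1 (0.26) or 2 (0.34) or with no replicate block, and the mean over all Pde4b probe sets gave -0.03. With 991 none of the 6 Pde4b probe sets was called in either genotype, and 1422474_at changed by 0.03 ± 0.08 in dKO hepatocytes and 0.02 ± 0.08 in WT hepatocytes (95% interval -0.15 to 0.2).

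Crem had 8.2 and 8.52 in dKO hepatocytes with AICAR, against 7.96 and 8.33 with vehicle, and rose by 0.22 ± 0.06 (adjusted p = 0.0282). In WT hepatocytes it changed by -0.03 ± 0.06, and the difference between genotypes, 0.25 ± 0.09, was not called (adjusted p = 0.236). The Crem call was lost without dKO preparation 1 (0.19) or 2 (0.24), with its probe sets averaged (0.15) and with no replicate block. Beside these rises, 7 of 10 Kupffer cell markers rose with AICAR in dKO hepatocytes, with a median of 0.31, and their summed level was 11.7 to 12.11 with AICAR and 11.43 to 11.8 with vehicle. In WT hepatocytes 1 of 10 rose, with a median of 0.17, and the sums were 12.33 to 12.79 with AICAR and 12.15 to 12.74 with vehicle. Markers of some other types rose too. Of 8 endothelial markers 4 rose in dKO and 3 in WT hepatocytes, and of 9 hepatocyte markers 5 and 4 (medians 0.15 and 0.12). In each genotype 2 of 10 fibroblast and stellate markers rose. Of 7 lymphocyte markers 1 rose in dKO and none in WT hepatocytes. Of 4 measured cholangiocyte markers none rose and 1 fell in each genotype. Their sums were 8.85 to 9.0 with AICAR and 9.02 to 9.27 with vehicle in dKO hepatocytes. In WT hepatocytes they were 8.46 to 8.84 with AICAR and 8.87 to 9.07 with vehicle. Of all genes 10.6% rose and 7.46% fell in dKO hepatocytes, and 8.48% rose and 8.05% fell in WT hepatocytes. The part of these markers in the Pde4d, Pde4b and Crem rises was not tested.

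Pde3b changed by 0.08 ± 0.06 in dKO hepatocytes with AICAR and 0.17 ± 0.06 in WT hepatocytes (adjusted p = 0.063). The 3 NR4A genes were not called in hepatocytes with either compound. Nr4a1 had 7.61 and 7.71 in WT hepatocytes with 991, against 7.51 and 7.33 with vehicle, a change of 0.24 ± 0.08 (adjusted p = 0.133, 95% interval 0.06 to 0.42). Nr4a2 with AICAR, by its brightest probe set here, 1450749_a_at, changed by 0.13 ± 0.06 in dKO hepatocytes (adjusted p = 0.188). It changed by -0.01 ± 0.06 in WT hepatocytes, with an interval of -0.15 to 0.13. The brightest Nr4a2 probe set in MEFs was another, 1455034_at. In hepatocytes with AICAR it changed by -0.15 and 0.03 in the dKO preparations and by -0.14 and 0.04 in the WT preparations. Pde7b probe set 1450213_at rose by 0.34 ± 0.08 in dKO hepatocytes with AICAR (adjusted p = 0.0135). Pde4a and Pde10a changed by -0.06 to 0.15 in the 4 treatment comparisons, none of them called.

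**Figure D5:**
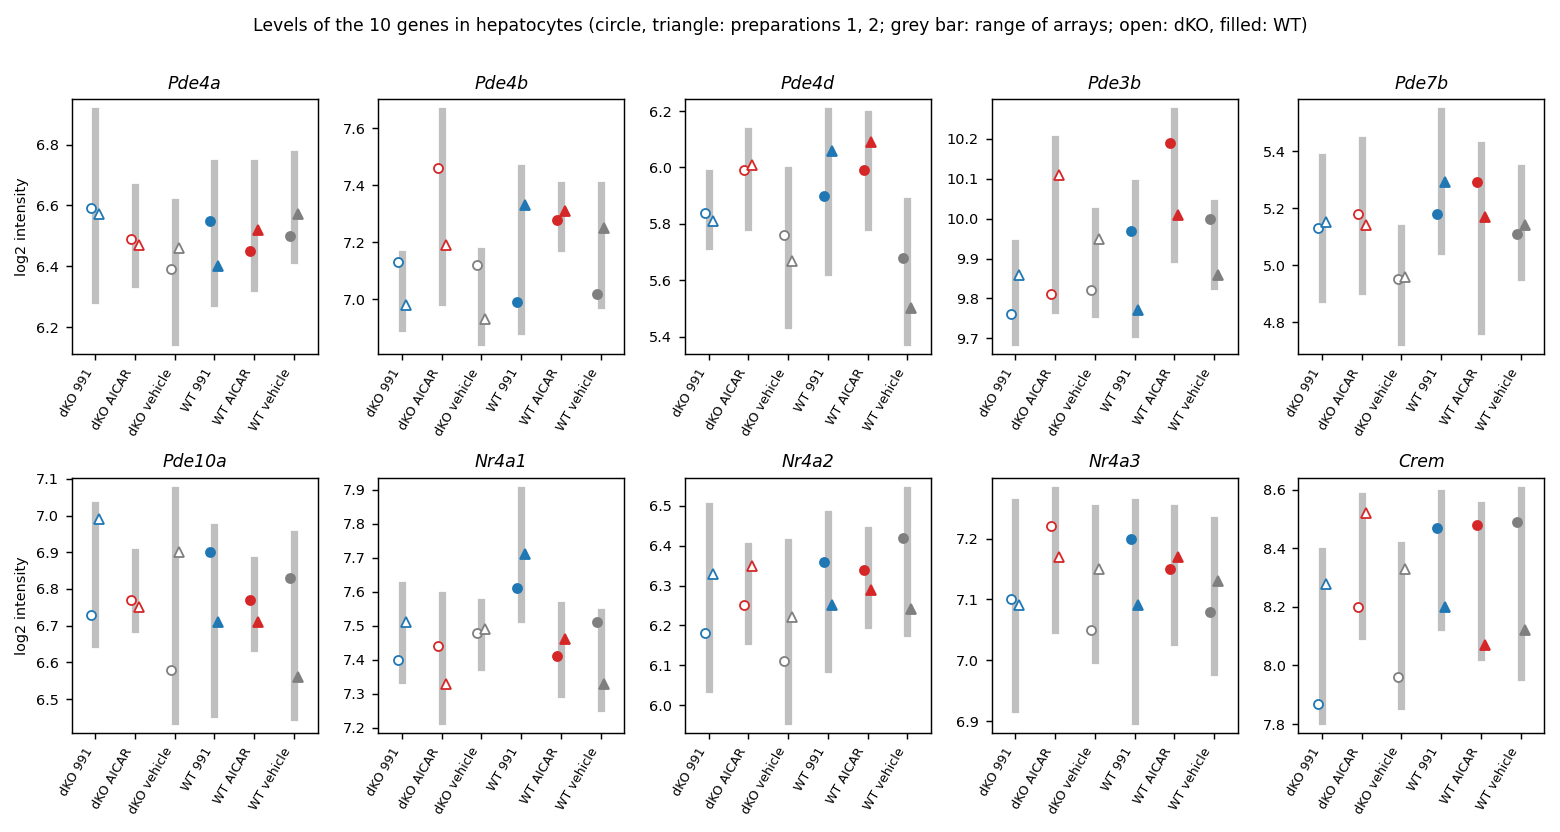
Log2 intensity of the 10 genes in hepatocytes, brightest probe set, by group; circle and triangle are the 2 preparations and grey bars the range of arrays. Pde4d is higher with AICAR in all 4 preparations, with means of 5.99 to 6.09 against 5.5 to 5.76 with vehicle, although its arrays overlap. No NR4A gene was called with either compound.

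With AICAR 3 of the 10 genes were called higher in dKO hepatocytes, against 18% of all genes, 10.6% higher and 7.46% lower. One was called higher in WT hepatocytes, against 16.5% of all genes, 8.48% higher and 8.05% lower. With 991 1 was called higher in WT hepatocytes, against 5.01% of all genes, 3.05% higher and 1.96% lower, and none in dKO hepatocytes, against 0.0055% of all genes, with 1 of the 10 at an unadjusted p under 0.05. Over all probe sets 4.09% were called in WT hepatocytes with 991, but 0.433% without WT preparation 2, 2.56% without WT preparation 1 and 0.837% with no replicate block. For the differences between genotypes none was called by limma, against 0.247% of all genes with 991 and 0.572% with AICAR, and 2 and 1 of the 10 had an unadjusted p under 0.05. The median changes of the 10 genes with AICAR were 0.11 in dKO and 0.05 in WT hepatocytes, against 0.04 over all genes in both.

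With vehicle no gene was called between dKO and WT hepatocytes (0% of all genes), where 860 of 18193 genes and 1 of the 10 had an unadjusted p under 0.05. The test rests on 2 preparations per genotype. Pde3b, which differed most in MEFs, differed by -0.04 ± 0.09 in hepatocytes, with a 95% interval of -0.27 to 0.18. The interval for Pde4d was -0.09 to 0.34, and that for Crem was -0.58 to 0.25.

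Other genes of the pathway were read from lists, each gene by its brightest probe set. Of 13 other phosphodiesterase genes none was called by limma with 991 in dKO MEFs, and 1 rose and 1 fell in WT MEFs, against 2.48% of all genes called in dKO MEFs and 16.9% in WT MEFs. The gene that fell was Pde2a, the cGMP-stimulated phosphodiesterase (-0.37 ± 0.06), and like Pde4b its change differed between genotypes, by 0.41 ± 0.08 (adjusted p = 0.00169). With AICAR 2 rose in dKO MEFs, and 2 rose and 1 fell in WT MEFs. Pde7a rose by 0.37 ± 0.06 in dKO MEFs and 0.19 ± 0.06 in WT MEFs, and Pde8b by 0.46 ± 0.13 and 0.33 ± 0.13, both high-affinity cAMP phosphodiesterases. The list medians were -0.02 in dKO MEFs and 0.02 in WT MEFs, against -0.02 and -0.01 over all genes.

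Of 10 adenylyl cyclase genes, none was called with 991 in either cell type. Of all genes 2.48% were called with 991 in dKO MEFs, 16.9% in WT MEFs, 0.0055% in dKO hepatocytes and 5.01% in WT hepatocytes. With AICAR 2 fell in dKO MEFs, and 1 rose and 2 fell in WT MEFs. Adcy9 fell by 0.60 ± 0.06 in dKO MEFs and 0.51 ± 0.06 in WT MEFs, and Adcy7 by 0.22 ± 0.05 and 0.26 ± 0.05. Adcy6 rose by 0.28 ± 0.04 in WT MEFs. The medians were 0 and -0.02, against -0.02 and -0.01 over all genes.

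Of 9 protein kinase A subunit and inhibitor genes, 5 rose and none fell with AICAR in dKO MEFs (median 0.15, against -0.02 over all genes), and 2 rose and 2 fell in WT MEFs (median 0.06, against -0.01). Of all genes 20.1% rose and 19.6% fell in dKO MEFs and 19.1% rose and 15.1% fell in WT MEFs, also for the lists of phosphodiesterases, cyclases and CREB factors. The inhibitor gene Pkig rose by 0.51 ± 0.07 in dKO MEFs and 0.34 ± 0.07 in WT MEFs. The regulatory subunit gene Prkar1a rose by 0.29 ± 0.03 in dKO MEFs and 0.23 ± 0.03 in WT MEFs. The genes that fell in WT MEFs were Prkar2b (-0.27 ± 0.07) and Prkar1b (-0.21 ± 0.08). Of 11 CREB factor, coactivator and salt-inducible kinase genes, 4 rose and 4 fell in dKO MEFs and 3 rose and 3 fell in WT MEFs with AICAR. Crtc2, a CREB coactivator, rose by 0.46 ± 0.07 in dKO MEFs and 0.31 ± 0.07 in WT MEFs. Crebl2 was lower, with changes of -0.58 ± 0.11 in dKO MEFs and -0.51 ± 0.11 in WT MEFs. Sik3, a salt-inducible kinase that restrains CREB coactivators, rose by 0.59 ± 0.06 in dKO hepatocytes and 0.30 ± 0.06 in WT hepatocytes, where 3 and 2 genes of this list rose and none fell (medians 0.07 and 0.11, against 0.04 over all genes, of which 10.6% and 8.48% rose).

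Of the 19 measured genes of a list of other cAMP and CREB targets, 2 rose and 8 fell with AICAR in dKO MEFs (median -0.12, against -0.02 over all genes, of which 20.1% rose and 19.6% fell). In WT MEFs 4 rose and 8 fell (median -0.14, against -0.01 over all genes, of which 19.1% rose and 15.1% fell). Ptgs2, which encodes the prostaglandin synthase COX-2, fell by 1.18 ± 0.07 in dKO MEFs and 0.95 ± 0.07 in WT MEFs, and Irs2, an insulin receptor substrate, changed by -1.34 ± 0.07 in dKO MEFs and -0.67 ± 0.07 in WT MEFs. In hepatocytes with AICAR 9 rose and 2 fell in dKO cells and 8 rose and 2 fell in WT cells (medians 0.25 and 0.29, against 0.04 over all genes). Of all genes 10.6% rose and 7.46% fell in dKO hepatocytes and 8.48% rose and 8.05% fell in WT hepatocytes. Egr1 rose by 2.55 ± 0.21 in dKO hepatocytes and 2.91 ± 0.21 in WT hepatocytes, and Fos by 1.81 ± 0.55 and 2.96 ± 0.55. Both are immediate early genes that also respond to growth factors and stress. Pck1 rose by 1.23 ± 0.26 in WT hepatocytes with AICAR (adjusted p = 0.00733 by limma).

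With 991, 6 of these 19 rose and 2 fell in WT hepatocytes (median 0.13, against 0.03 over all genes, of which 3.05% rose and 1.96% fell), and 1 fell and none rose in dKO hepatocytes (median 0.01, against 0.01). G6pc, the last enzyme of glucose output, fell by 1.54 ± 0.24 in WT hepatocytes (adjusted p = 0.00626). Egr1 rose there by 1.53 ± 0.21 and Atf3 by 1.43 ± 0.26. Cited2 was called lower with 991 in both genotypes, at -1.06 ± 0.06 in WT hepatocytes and -0.58 ± 0.06 in dKO hepatocytes. For the difference between hepatocyte genotypes with 991, 1 of the 19 was called, Dusp1 (-0.37 ± 0.06), against 0.247% of all genes. The G6pc change was not called, so it was not shown to differ. Dusp1, a phosphatase gene induced by stress, fell by 2.09 ± 0.04 in dKO hepatocytes with AICAR, and its change differed between genotypes by -1.76 ± 0.06 (adjusted p = 4.5e-07). Of 9 measured genes of G protein subunits and receptors, 3 rose and 1 fell with AICAR in dKO MEFs. Their median was -0.06, against -0.02 over all genes, of which 20.1% rose and 19.6% fell. The gene that fell was the prostaglandin receptor gene Ptger4, which acts through cAMP, and it fell by 1.16 ± 0.05 in dKO MEFs with AICAR, with a difference between genotypes of -1.08 ± 0.07 (adjusted p = 2.51e-12). With 991 Ptger4 rose by 0.35 ± 0.05 in WT MEFs and fell by 0.34 ± 0.07 in WT hepatocytes. Of 11 genes of A-kinase anchoring proteins, which place protein kinase A at its targets, 1 fell with 991 in dKO MEFs, Akap1 (-0.19), with a list median of -0.07, against 0.01 over all genes, of which 2.48% were called. In WT MEFs 5 rose with 991 (median 0.05, against 0 over all genes, of which 12.5% rose). None of the 11 was called by limma with 991 in hepatocytes, against 0.0055% of all genes in dKO and 5.01% in WT hepatocytes.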

How the data were processed

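RNA of 23 MEF and 59 hepatocyte samples was hybridised to Affymetrix mouse arrays. The authors deposited log2 values, 1 per probe set and array, made with RMA and Partek per the submitters' processing notes; versions, background settings and whether both cell types were normalized together are not given in the sources used here, so tests stayed within a cell type. Per the labels' design text, 1 array per cell type had been left out as an outlier. Of 45101 probe sets 64 controls were dropped, and of 45037, 34945 had 1 gene symbol, 932 several and 9160 none in the platform annotation; 34741 matched RefSeq by Entrez identifier. No pair of arrays was identical, and no filter on dim probe sets was applied.

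Linear models were fitted by limma 3.58.1 under R 4.3.3, with moderated variances (eBayes, intensity trend), Benjamini-Hochberg adjustment over 45037 probe sets and a threshold of 0.05. MEF fits held 6 group means (17 residual degrees of freedom). Hepatocyte fits used 12 preparation means with preparation within genotype as a block (4 degrees of freedom), and dKO against WT with vehicle used 4 means (2 degrees of freedom). The block takes the biological replicate numbers of the labels within a genotype as preparations, whose means deviated together across treatments (median r = 0.459, 0.358 to 0.783). The number of arrays limits the precision. Scripts were tested on simulated data; Python 3.11.15, pandas 2.3.3, scipy 1.17.1 and matplotlib 3.10.9 were used.

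The 10 genes and the pathway and marker lists were chosen with earlier results of these data known. All probe sets of the 10 genes were tested, but not every one is named in the text. From each list up to 4 called genes per comparison with the largest change could be named. Alternatives were quantile normalization, a filter on dim probe sets, averaging the probe sets of a gene, testing 1 probe set per gene, no trend, other blocks, every array as a sample, and leaving out each array or preparation.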

Additional observations from a re-analysis of the deposited data

Results flagged for a closer look

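Of 40 differences between genotypes in the response to a compound over the 10 genes, 3 were called by limma. All 3 were in MEFs, where p measures technical spread only and 3.9% of all genes were called with 991 and 10.9% with AICAR. In hepatocytes 0.247% of all genes were called with 991 and 0.572% with AICAR. In MEFs the 991 change of Pde4b in dKO minus that in WT was 0.70, the AICAR change of Pde3b was 0.88 and that of Nr4a1 was -0.30.

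In the 5 MEF groups of 4 arrays, 50 sets of 4 values were looked at, 1 for each gene in each group, and in 6 of them 1 array stood apart from the other 3; chance gives about 1 in 20. Pde4d in dKO with 991 read 6.69 in replicate 4, against 6.46 to 6.48 in the others. Pde10a read 6.92 in dKO vehicle replicate 1, against 7.14 to 7.18, and 6.36 in WT vehicle replicate 4, against 6.22 to 6.23. Nr4a1 read 8.22 in WT vehicle replicate 3, against 8.36 to 8.37. Crem read 6.17 in dKO vehicle replicate 3, against 5.94 to 5.97, and 6.38 in WT AICAR replicate 1, against 6.03 to 6.05.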

How the results depend on the processing

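Of 25 called changes of the 10 genes, 15 kept their direction and call in every alternative run, among them Pde4b with 991 in WT MEFs (-0.81 to -0.37) and its difference between genotypes (0.3 to 0.77), Pde4d and Nr4a2 with AICAR in both MEF genotypes, and the vehicle differences of Pde3b, Pde4d, Pde4a, Pde4b, Pde10a and Nr4a2. The other 10 were lost in at least 1; where leaving out an array or preparation did so, the value stands beside the result. When the probe sets of a gene were averaged, Pde4b in dKO hepatocytes with AICAR was -0.03 and Pde10a in dKO MEFs with AICAR was -0.19, opposite in sign to the brightest probe set; the probe sets of these genes differ in direction.

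The number of the 10 genes called became 2 under quantile normalization for WT MEFs with 991, 5 for dKO and 2 for WT hepatocytes with AICAR. Among probe sets at or above the median, which drop Pde4d in hepatocytes, it became 1 for dKO MEFs with 991 and 0 for WT hepatocytes with 991 or AICAR. Without an intensity trend 1 AICAR difference between MEF genotypes was called. With every array as a sample, which takes technical for biological replicates, it became 2 for WT hepatocytes with 991, 2 for the 991 difference, 6 for dKO and 3 for WT hepatocytes with AICAR, 1 for the AICAR difference and 1 for vehicle. Leaving out 1 array or preparation gave 0 to 1 for dKO MEFs with 991, 1 to 2 for WT MEFs with 991, 2 to 4 for WT MEFs with AICAR, 1 to 3 for the AICAR difference in MEFs, 0 to 4 for dKO hepatocytes with AICAR, and 0 to 1 for WT hepatocytes with 991 or AICAR. Counts over all probe sets also moved by over 1.5 times. For the difference between MEF genotypes with 991, 2.9% were called, against 1.39% without WT 991 replicate 2 and 5.35% without WT vehicle replicate 2, and quantile normalization moved the share of calls that were higher to 31.6%, against 18.3%. For dKO MEFs with 991, 1.78% were called, against 0.708% without dKO vehicle replicate 2 and 0.691% with no intensity trend. With AICAR, 20.8% were called in dKO hepatocytes, against 9.5% without dKO preparation 1, and 18.2% in WT hepatocytes, against 9.61% without WT preparation 1. Apart from these named cases, the cause was not tested.

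MEF technical replicate numbers did not pair arrays (median r = 0.00514, 6 of 23 arrays closest to their own number), and a replicate block left the MEF counts at 0, 1 and 1 with 991, 5, 4 and 2 with AICAR and 7 with vehicle. Hepatocyte fits with no replicate block gave 0 for WT with 991 and 2 for dKO with AICAR, which are Pde4d and Pde7b, with Pde4b and Crem lost. Over all treatments, deviations of same-numbered preparations of the 2 genotypes from their group means correlated at a median of -0.675. With 2 preparations per group these deviations mirror each other, so the crossed numbering gives the opposite sign. For dKO against WT with vehicle, a replicate block by number gave 4 called probe sets and 0 of the 10 genes. A crossed block, chosen after seeing the data, gave 2948 and 0.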

Other observations

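The genes whose levels ran most closely with these genes are given as descriptions, over arrays that share vehicle groups and treatments. Over the 23 MEF arrays centred on their genotype mean, Pde4b ran closest to Klf2 (Pearson r = 0.812), Cdc42ep2 (0.789) and Tmem63a (0.785), Pde4d to Patz1 (0.965), Synj2 (0.962) and Ldb3 (0.953), and Nr4a2 to Cks2 (0.965), Rest (0.962) and Rbbp6 (0.961). Over the 59 hepatocyte arrays centred on their preparation mean, Pde4b ran closest to Gmeb1 (0.842), Ankrd11 (0.84) and Dab2 (0.839), Pde4d to Plk3 (0.816), Ackr3 (0.807) and Klf6 (0.796), and Crem to Rab33b (0.761), Marchf7 (0.759) and Coq10b (0.755).

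With vehicle, other genes of cAMP production and action also differed between the MEF genotypes. Adcy7, an adenylyl cyclase of haematopoietic cells, was higher in dKO MEFs by 1.95 ± 0.05 and the regulatory subunit gene Prkar1b by 1.35 ± 0.08, while Gnai1, an inhibitory G protein subunit gene, differed by -1.47 ± 0.04, Pde8b by -1.32 ± 0.13 and the salt-inducible kinase gene Sik2 by -0.95 ± 0.05. Of the 13 other phosphodiesterase genes 4 were higher and 5 lower in dKO MEFs, with a median of -0.11 against 0 over all genes, of which 27.7% were called higher and 18.8% lower.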
